A study of Mus musculus with 4 samples.

Results

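Calcium-buffering and S100 proteins of the trigeminal ganglion were examined through 9 genes, chosen by name: Pvalb, Calb1, Calb2, Vsnl1, S100b, S100a4, S100a6, S100a10 and S100a11. All 9 were found once each among the 56035 gene rows. The ganglion, which holds the sensory neurons of the face with their glia, was taken from male C57BL/6 mice aged 8 weeks. One group carried TRPV1 K823R, an allele in which a lysine of the heat- and capsaicin-gated channel TRPV1 is replaced by arginine, and the other was wild-type (WT) littermates. Each group had 2 libraries of bulk ganglion RNA. The labels call the carriers both KI (knock-in) and transgenic. They do not say whether carriers had 1 or 2 copies of the allele, nor how the pairs of ganglia they mention were divided among libraries, so the p-values cover the spread of these libraries alone, and that spread may be technical. The study concerns TRPV1 SUMOylation, itch and H1 histamine receptors, and the comparison of the genotypes asks whether transcripts differ when this lysine is lost.

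Levels are in TPM, a transcript abundance, which are scaled to gene length and to one total per library, so genes can be compared with each other but read depth is unknown. Markers of the labelled tissue were abundant. The 6 pan-neuronal markers summed to 9975 to 11461 TPM, the 7 satellite glia markers to 11144 to 12420 TPM and the 10 markers of myelinating Schwann cells to 11875 to 17408 TPM over the 4 libraries. WT replicate 1 stood apart for central glia, whose 8 markers summed to 16.1 TPM in it and to 215, 260 and 309 TPM in WT replicate 2 and K823R replicates 1 and 2. It was also the lowest library for fibroblast markers (348 TPM against 917 to 2927 TPM) and macrophage markers (99.5 TPM against 150 to 193 TPM), and the highest for red cell markers (458 TPM against 231 to 317 TPM). The same library was lowest for myelinating Schwann cells (11875 TPM against 14622 to 17408 TPM), endothelium (64.0 TPM against 78.6 to 86.7 TPM), and smooth muscle and pericytes (85.0 TPM against 97.5 to 102 TPM). For pan-neuronal markers it was the highest (11461 TPM against 9975 to 11021 TPM). The sum of 7 pituitary markers separated the genotypes, at 2.57 and 4.65 TPM in the WT libraries and 23.0 and 19.6 TPM in those of K823R. In K823R most of that was Gh, growth hormone, which was at 0.25 and 1.15 TPM in WT against 17.08 and 12.03 TPM in K823R. Prl was at 0.00 and 0.11 TPM in WT against 3.05 and 3.56 TPM in K823R. Pomc and Tshb overlapped between groups, Pitx1 was lower in K823R, and Lhb and Fshb were listed at 0 throughout. The central glia sum, too, was higher in both K823R libraries than in either WT library. The part of these markers in the member differences was not tested. In bulk tissue, fewer cells of a type and less RNA per cell cannot be told apart.

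Most of these proteins bind calcium through the EF-hand, a helix-loop-helix whose loop of 12 residues wraps around the ion. Parvalbumin (Pvalb), calbindin-D28k (Calb1) and calretinin (Calb2) are soluble buffers that shape calcium transients in subsets of sensory neurons, and parvalbumin is a marker of large, fast-conducting ones. Visinin-like protein (Vsnl1) is a neuronal calcium sensor that moves to membranes when it binds calcium. S100 proteins are small dimers with a variant loop near the N terminus and a canonical loop near the C terminus. On binding calcium they expose a surface for target proteins. S100A10, also called p11, is known as the family member that holds the calcium-bound shape without calcium, and it joins annexin A2 in a complex that brings membrane proteins, including the sodium channel of nociceptors Nav1.8, to the cell surface.

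The canonical loop is shown here for 4 S100 members and 3 buffers because it is the feature that these genes share and in which S100a10, the most abundant member, differs. The stretches are coding sequence, 5′ to 3′, and capitals mark codons 1 and 12 of the loop. Loops of the buffers are numbered by the order of the pattern matches described next, and the Calb1 and Calb2 stretches are not counterparts: the Calb1 stretch aligns with the third match of Calb2.
S100a10: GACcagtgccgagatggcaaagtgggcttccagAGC
S100a6: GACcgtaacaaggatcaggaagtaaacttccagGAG
S100a4: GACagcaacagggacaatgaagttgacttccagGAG
S100a11: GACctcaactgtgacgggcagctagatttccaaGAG
Pvalb, first match: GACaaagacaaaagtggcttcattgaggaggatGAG
Calb1, second match: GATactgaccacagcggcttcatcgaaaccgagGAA
Calb2, second match: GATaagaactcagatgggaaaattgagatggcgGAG
In GRCm38 the S100a10 stretch lies at chr3:93564288-93564323 on the plus strand, in exon 3 of its transcript. The S100a6, S100a4 and S100a11 stretches lie at chr3:90614233-90614268, chr3:90605785-90605820 and chr3:93526037-93526072, each on the plus strand and in exon 3. The Pvalb stretch lies at chr15:78202526-78202561 on the minus strand in exon 3, that of Calb1 at chr4:15895644-15895679 on the plus strand in exon 5, and that of Calb2 at chr8:110154653-110154688 on the minus strand in exon 3. The PROSITE EF-hand pattern, searched in the translated reading frames, was found 5 times in Calb2, 4 times in Calb1, 3 times in Vsnl1, 2 times in Pvalb, and 1 time in each of S100b, S100a4, S100a6 and S100a11. It was found 0 times in S100a10, whose stretch was located by aligning its translation with that of S100b. A match is a description of the sequence and does not measure calcium binding. Between the translated S100 members identity ran from 23.0% (S100a6 and S100a10) to 44.6% (S100a4 and S100a6) over 10 pairs, and Calb1 and Calb2 were 58.1% identical.

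The members fell into 2 tiers of abundance. S100a10 was the highest, with a mean of 1546 TPM over the 4 libraries, and ranked 62 among the 15390 genes tested. S100b and S100a6 followed at 1045 and 1009 TPM, and their library ranges overlapped. Below them the mean dropped 6.16-fold to Vsnl1 at 164 TPM. Vsnl1, Pvalb (161 TPM), S100a4 (159 TPM), S100a11 (140 TPM) and Calb2 (108 TPM) each overlapped the next in the range of the libraries, so neighbours in this order were not resolved, although Pvalb lay above S100a11 in every library. Calb1 was the lowest at 72.0 TPM, and its highest library, at 81.90 TPM, lay just below the lowest of Calb2 at 82.46 TPM. Even Calb1 stood above 84.5% of the genes tested. Together the 9 members held 0.450% and 0.466% of all TPM in WT and 0.422% and 0.424% in K823R.

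**Figure D1:**
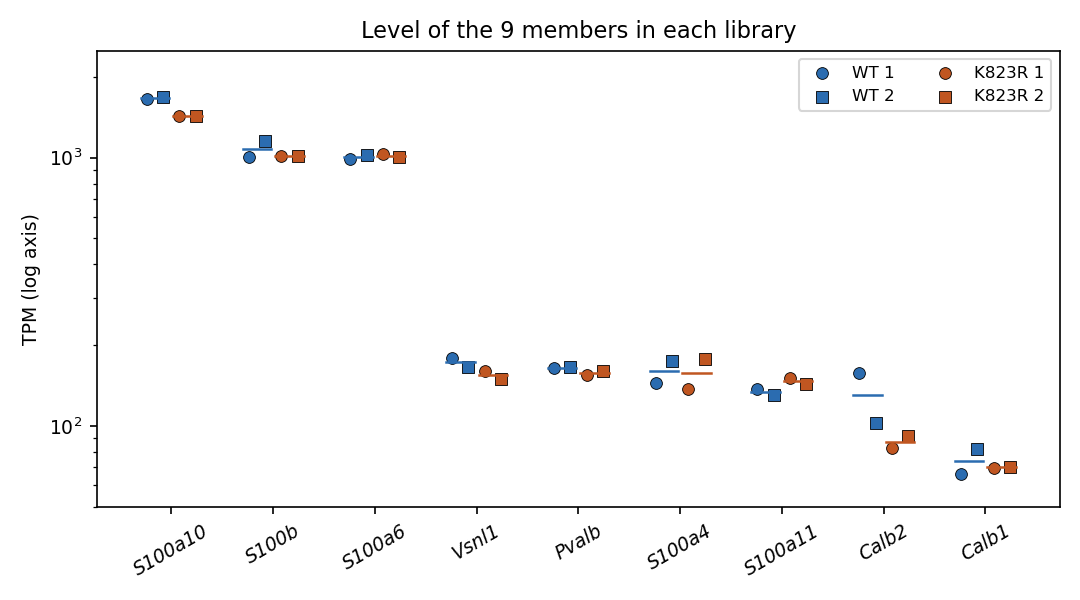
TPM on a log axis for the 9 members, ordered by mean level. Each point is 1 library (circles replicate 1, squares replicate 2, blue WT, orange K823R) and short lines are group means. S100a10, S100b and S100a6 sit near or above 1000 TPM, the other 6 members between 65.96 and 179.58 TPM, and Calb2 spreads the most.

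No member passed the test between genotypes. By limma on log2(TPM + 1), adjusted over all 15390 genes tested, 0 of the 9 members had an adjusted p below 0.05, against 1 gene (0.00650%) overall. That gene, named because it was the only one, was Gm43110, a pseudogene. At an unadjusted p below 0.05 limma gave 1 of 9 members (S100a10), against 4.76% of all genes tested. WT and K823R libraries were fully separated for 5 of the 9 members, 4 lower (S100a10, Calb2, Vsnl1, Pvalb) and 1 higher (S100a11) in K823R, against 34.0% of all genes in either direction, 14.6% lower and 19.4% higher. Of the 9 members 7 had a lower mean log2 level in K823R, against 42.6% of all genes, with a median log2 difference of -0.073 against 0.026. That direction rested on WT replicate 2. Without it 4 members were lower and the median was 0.0097, and without WT replicate 1 the median was -0.16.

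**Figure D2:**
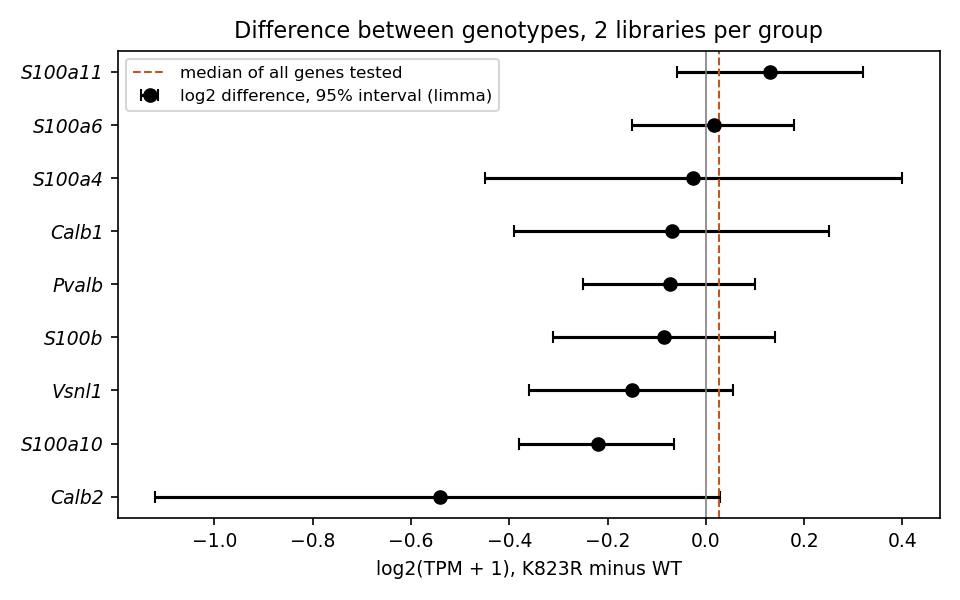
Log2 difference in level, K823R minus WT, for each member, with the 95% confidence interval from limma. The dashed line is the median of all genes tested (0.026). The interval of S100a10 alone lies wholly on one side of 0, and that of Calb2 is the widest.

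S100a10 (ENSMUSG00000041959; chromosome 3, 93555080 to 93564643) gave the closest replicates relative to the gap between groups. Its level was 1656.72 and 1675.54 TPM in the WT libraries and 1422.23 and 1428.65 TPM in those of K823R. Both K823R libraries were below both WT libraries, and the replicates of a group lay close together. The K823R mean differed from the WT mean by -14.4%, with 1666 ± 13.3 TPM for WT against 1425 ± 4.54 TPM for K823R (SD, n = 2 each). On the log2(TPM + 1) scale this came to -0.22 (standard error, SE, 0.061; 95% confidence interval from -0.38 to -0.065; limma adjusted p = 0.918). By p it ranked 229 of the 15390 genes, so it did not stand out among the many genes tested. The difference ran from -0.25 to -0.16 over the 11 alternative settings, and was -0.23 without WT replicate 1.

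The annexin partner of S100a10 did not pass the test either. Anxa2, which encodes annexin A2, was as abundant as S100a10, at 1608.65 and 1384.50 TPM in the WT libraries and 1604.75 and 1585.70 TPM in those of K823R. Its groups overlapped (log2 difference 0.096, SE 0.093; limma adjusted p = 0.933). The ratio of the S100a10 level to the Anxa2 level within a library was 1.03 and 1.21 in WT and 0.886 and 0.901 in K823R. The ratio, which was picked after the levels were seen and was not tested, put S100a10 above its partner in both WT libraries and below it in both K823R libraries. Scn10a, the gene of Nav1.8, was at 175.40 and 134.09 TPM in the WT libraries and 181.55 and 145.98 TPM in those of K823R, with overlapping groups.

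S100a11 (ENSMUSG00000027907; chromosome 3, 93520488 to 93526287), which encodes a partner of annexins A1 and A2, lies 28792 bases upstream of S100a10 on the same strand. It was at 137.28 and 130.69 TPM in the WT libraries and 150.50 and 143.23 TPM in those of K823R. It was the one member whose K823R libraries were both above both WT libraries. The log2 difference was 0.13 (SE 0.072), with a 95% interval of -0.058 to 0.32 (limma adjusted p = 0.918). The neighbours thus had differences of opposite sign, and S100a10 was 12.1 and 12.8 times as abundant as S100a11 in WT and 9.45 and 9.97 times in K823R. Over at least 100 bases at 95% identity or more, the S100a11 transcript matched the pseudogenes Gm12854 and Gm7665, both listed at 0 in every library. The deposited values thus put no level on the pseudogenes, and how reads shared by the 3 were assigned is not known.

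S100a6 (ENSMUSG00000001025; chromosome 3, 90612882 to 90624181), calcyclin, was the steadiest member. It was at 987.85 and 1018.40 TPM in the WT libraries and 1027.80 and 1002.29 TPM in those of K823R. The groups overlapped and the coefficient of variation (CV) over the 4 libraries was 1.75%, lower than in all but 1.55% of the 9100 genes averaging 10 TPM or more, whose median CV was 7.46%. The log2 difference was 0.017 with a 95% interval of -0.15 to 0.18 (limma adjusted p = 0.986), and its sign changed under 3 of the 11 alternatives. Cacybp, which encodes the calcyclin-binding protein, was at 126.59 and 119.28 TPM in the WT libraries and 100.69 and 113.91 TPM in those of K823R (limma adjusted p = 0.918).

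S100a4 (ENSMUSG00000001020; chromosome 3, 90603771 to 90606045) begins the stretch that leads to S100a6, 6836 bases further on, and encodes a protein that binds non-muscle myosin and is known in motile cells. It varied more between replicates than between the group means, at 144.78 and 174.68 TPM in the WT libraries and 137.46 and 177.49 TPM in those of K823R. Replicate 2 was the higher library in both groups. The log2 difference was -0.026 with SE 0.16 and a 95% interval of -0.45 to 0.40 (limma adjusted p = 0.992). It was -0.16 without WT replicate 1 and -0.21 without K823R replicate 2, and turned to 0.11 without WT replicate 2 and to 0.16 without K823R replicate 1. Part of its transcript matched Gm42674, an overlapping model at 0.57 TPM in WT replicate 2 and at 0 in the other libraries. S100a4 and S100a6 thus lay on one chromosomal stretch at very different levels.

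S100b (ENSMUSG00000033208; chromosome 10, 76253853 to 76261159) is an S100 gene known in Schwann cells, satellite glia and astrocytes. Which cells made it here cannot be told from bulk tissue. It was at 1005.89 and 1149.10 TPM in the WT libraries and 1010.76 and 1014.66 TPM in those of K823R. WT replicate 2 was the high library and the other 3 lay within a narrow band. The log2 difference was -0.086 with SE 0.087 and a 95% interval of -0.31 to 0.14 (limma adjusted p = 0.935), and it was 0.0097 without WT replicate 2 and -0.18 without WT replicate 1. In WT replicate 1, where the central glia markers summed to 16.1 TPM, S100b was at about its level in both K823R libraries. In WT replicate 2, where they summed to 215 TPM, S100b was higher. In the K823R libraries these markers summed to more, 260 and 309 TPM, with S100b at 1010.76 and 1014.66 TPM. The part of central glia in the S100b level was not tested. The ratio of S100b to Sox10, 1 of the 7 satellite glia markers, was 9.63 and 9.68 in WT and 9.03 and 7.98 in K823R. Of those 7 markers 3 were higher and 4 lower in K823R. Ratios to the others were not taken, and this ratio was not tested.

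**Figure D3:**
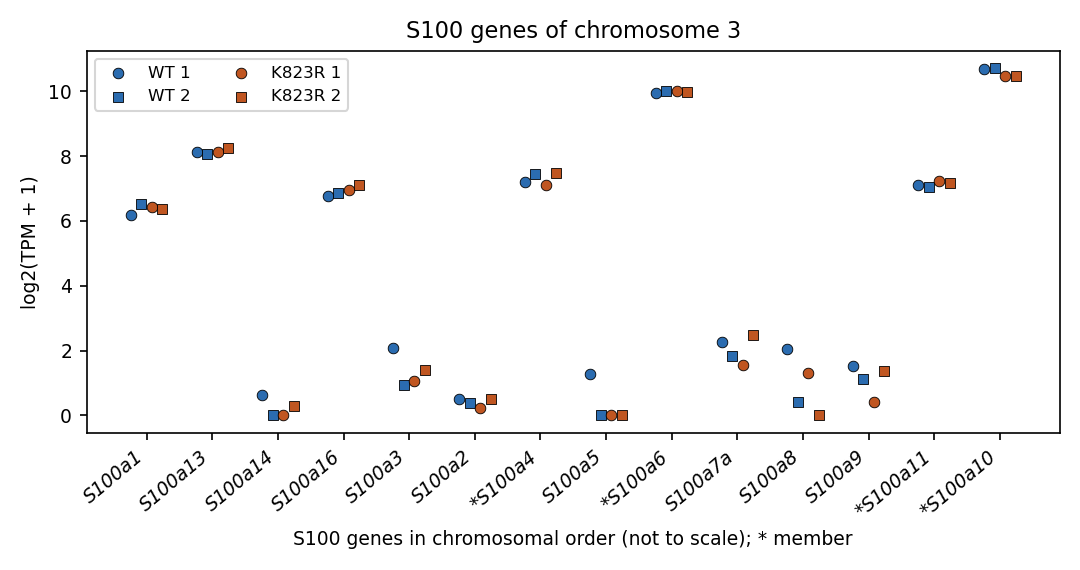
Log2(TPM + 1) in each library for the 14 S100 genes annotated on chromosome 3, in chromosomal order and not to scale, with members starred. S100a6 and S100a10 form the top tier, S100a13, S100a16, S100a4, S100a11 and S100a1 lie between 71.18 and 302.58 TPM, and the other 7 reach at most 4.58 TPM.

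A list of 11 other S100 genes, on chromosomes 3, 13 and X, had 8 members with a mean of at least 1 TPM. By limma 0 of the 8 passed and 0 had an unadjusted p below 0.05. By mean log2(TPM + 1) level 3 were higher and 5 lower in K823R, where 42.6% of all genes tested were lower. The median log2 difference was -0.16, and the 5 lower ones had means of at most 3.21 TPM. That median was -0.44 without WT replicate 2, and it turned to 0.13 without WT replicate 1 and to 0.044 without K823R replicate 1. The 3 well-expressed ones, S100a16, S100a13 and S100a1, were all higher, with a median of 0.10. The last 2 of these, and S100a8 and S100a9, were picked after their values were seen. S100a16 was at 107.55 and 115.28 TPM in the WT libraries and 122.54 and 137.77 TPM in those of K823R (log2 difference 0.22, SE 0.091; limma adjusted p = 0.918). S100a13, at 276.38 and 266.39 TPM in the WT libraries and 281.03 and 302.58 TPM in those of K823R, exceeded S100a4 and S100a11 in level. S100a1 was at 71.18 and 90.35 TPM in the WT libraries and 85.30 and 81.77 TPM in those of K823R. S100g, the intestinal calbindin-D9k, had means of 2.29 and 1.12 TPM (limma adjusted p = 0.918). The neutrophil genes S100a8 and S100a9 had at most 3.17 and 1.88 TPM in any library, and the 5 neutrophil markers summed to at most 2.86 TPM.

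Calb2 (ENSMUSG00000003657; chromosome 8, 110137502 to 110168210) was the most variable member and had the widest difference. It was at 157.73 and 102.39 TPM in the WT libraries and 82.46 and 91.41 TPM in those of K823R. WT replicate 1 stood far above the other 3 libraries, and both K823R libraries were below both WT libraries. The K823R mean differed from the WT mean by -33.2%, and the log2 difference was -0.54 with SE 0.22 and a 95% interval of -1.12 to 0.028 (limma adjusted p = 0.918). Its CV of 31.2% was above that of 96.9% of genes averaging 10 TPM or more. Without WT replicate 1 the difference was -0.24, and without WT replicate 2 it was -0.85. WT replicate 1 is also the library lowest in central glia, myelinating Schwann cell, fibroblast and macrophage markers, and highest in red cell and pan-neuronal markers. The part of these markers in the Calb2 difference was not tested.

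Calb1 (ENSMUSG00000028222; chromosome 4, 15881264 to 15908064), the closest relative of Calb2 here, had overlapping groups. It was at 65.96 and 81.90 TPM in the WT libraries and 69.81 and 70.24 TPM in those of K823R. The K823R libraries lay between the WT libraries. The log2 difference was -0.069 with SE 0.12 and a 95% interval of -0.39 to 0.25 (limma adjusted p = 0.958), and it was 0.085 without WT replicate 2 and -0.22 without WT replicate 1. Calb2 was 2.39 times as abundant as Calb1 in WT replicate 1 and 1.25, 1.18 and 1.30 times in WT replicate 2 and K823R replicates 1 and 2.

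Pvalb (ENSMUSG00000005716; chromosome 15, 78191114 to 78206400) was steady, at 163.81 and 166.34 TPM in the WT libraries and 154.19 and 159.64 TPM in those of K823R. Both K823R libraries were below both WT libraries, by a small step. The means differed by -4.94%, and the log2 difference was -0.073 with SE 0.066 and a 95% interval of -0.25 to 0.10 (limma adjusted p = 0.925). The CV of 3.30% was above that of 9.15% of the genes averaging 10 TPM or more. Pvalb is also abundant in fast skeletal muscle, whose 5 markers summed to 3.38 and 3.56 TPM in the WT libraries and 6.00 and 3.40 TPM in those of K823R. Of 11 markers of large-diameter neurons 5 were higher and 6 lower in K823R (median log2 difference -0.0013). Nefh, their heavy neurofilament gene, was 1199.85 and 1023.34 TPM in the WT libraries and 1196.85 and 1103.20 TPM in those of K823R. Brain neurons, some of which also make these buffers, were checked with 11 markers, which summed to 47.9 and 39.6 TPM in the WT libraries and 45.9 and 44.6 TPM in those of K823R. Of these 8 averaged under 1 TPM, among them Gad1, Gad2, Slc32a1, Slc6a5 and Pcp2, which mark inhibitory and Purkinje neurons, and Camk2a and Cbln1 made up most of the sum. Their part in the Pvalb values was not tested.

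Vsnl1 (ENSMUSG00000054459; chromosome 12, 11325242 to 11436613) was at 179.58 and 165.59 TPM in the WT libraries and 159.92 and 150.00 TPM in those of K823R. Both K823R libraries were below both WT libraries. The log2 difference was -0.15 with SE 0.080 and a 95% interval of -0.36 to 0.056 (limma adjusted p = 0.918), and it was negative under all 11 alternatives, from -0.21 to -0.096. Of 8 other neuronal calcium sensors tested, 6 were higher and 2 lower, where 42.6% of all genes tested were lower. The median log2 difference of the sensors was 0.075, against 0.026 over all genes. Leaving out WT replicate 2 turned the sensor median to -0.014. Leaving out K823R replicate 1 lowered it to 0.020, and leaving out WT replicate 1 or K823R replicate 2 raised it to 0.13 or 0.15. By limma 0 passed and 0 had an unadjusted p below 0.05. Hpca, hippocalcin, was at 96.62 and 100.73 TPM in the WT libraries and 111.03 and 102.89 TPM in those of K823R. Hpcal1 was at 169.70 and 130.88 TPM in the WT libraries and 179.43 and 170.53 TPM in those of K823R (limma adjusted p = 0.918 for both).

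**Figure D4:**
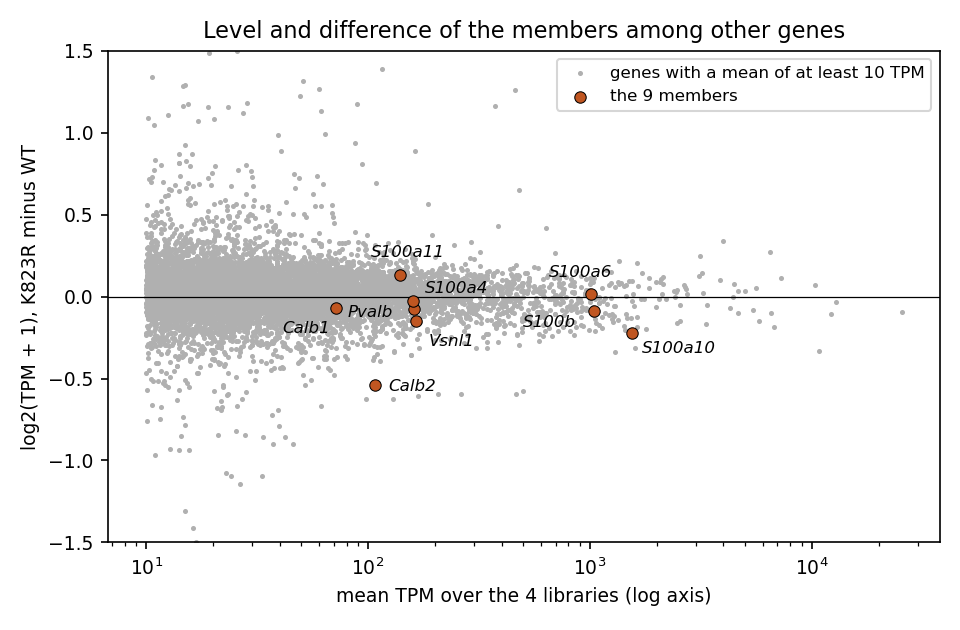
Log2 difference, K823R minus WT, against mean TPM on a log axis for genes averaging 10 TPM or more (grey, 1 point per gene) and the 9 members (orange). Calb2 lies at the lower edge of the cloud at its level and S100a10 near the lower edge at its own, and 72 grey genes lie outside the drawn range of 1.5 in either direction.

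No gene of the wider calcium-binding machinery passed the test. Among 21 tested calmodulins and other EF-hand genes 10 were higher and 11 lower, with a median log2 difference of -0.0046, which lay between -0.0091 and 0.017 with each library left out. By limma 0 passed and 1 had an unadjusted p below 0.05. Calm2, a calmodulin gene picked for its abundance after its values were seen, averaged 2417 TPM in the WT and 2418 TPM in the K823R libraries and so exceeded every member. Tesc, tescalcin, a regulator of sodium-proton exchange, was at 153.59 and 142.65 TPM in the WT libraries and 129.00 and 124.52 TPM in those of K823R (log2 difference -0.22, SE 0.075; limma adjusted p = 0.918). Efhd2, swiprosin-1, was at 24.36 and 22.41 TPM in the WT libraries and 26.84 and 29.10 TPM in those of K823R (limma adjusted p = 0.918).

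Known S100 partners and the genes that clear calcium were tested in the same fit. In K823R 10 of 12 partners were higher and 2 lower, where 42.6% of all genes tested were lower. The median log2 difference of the partners was 0.10, against 0.026 over all genes. Leaving out WT replicate 2 or K823R replicate 1 lowered the partner median to 0.026 or 0.048, and leaving out WT replicate 1 raised it to 0.19. By limma 0 passed and 0 had an unadjusted p below 0.05. Plat, tissue plasminogen activator, which binds the S100A10 complex, was at 14.60 and 14.02 TPM in the WT libraries and 16.24 and 16.62 TPM in those of K823R (limma adjusted p = 0.918). Of 13 pumps and exchangers 7 were higher and 6 lower (median 0.064). This median turned to -0.052 without WT replicate 2 and to -0.024 without K823R replicate 1, and was 0.13 without WT replicate 1 and 0.12 without K823R replicate 2. By limma 0 passed and 0 had an unadjusted p below 0.05. Slc24a2, a potassium-dependent sodium-calcium exchanger, was at 78.73 and 73.05 TPM in the WT libraries and 67.55 and 63.52 TPM in those of K823R. Mcu, the pore of the mitochondrial calcium uniporter, was at 24.97 and 23.30 TPM in the WT libraries and 26.29 and 25.37 TPM in those of K823R (limma adjusted p = 0.918 and 0.927).

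**Figure D5:**
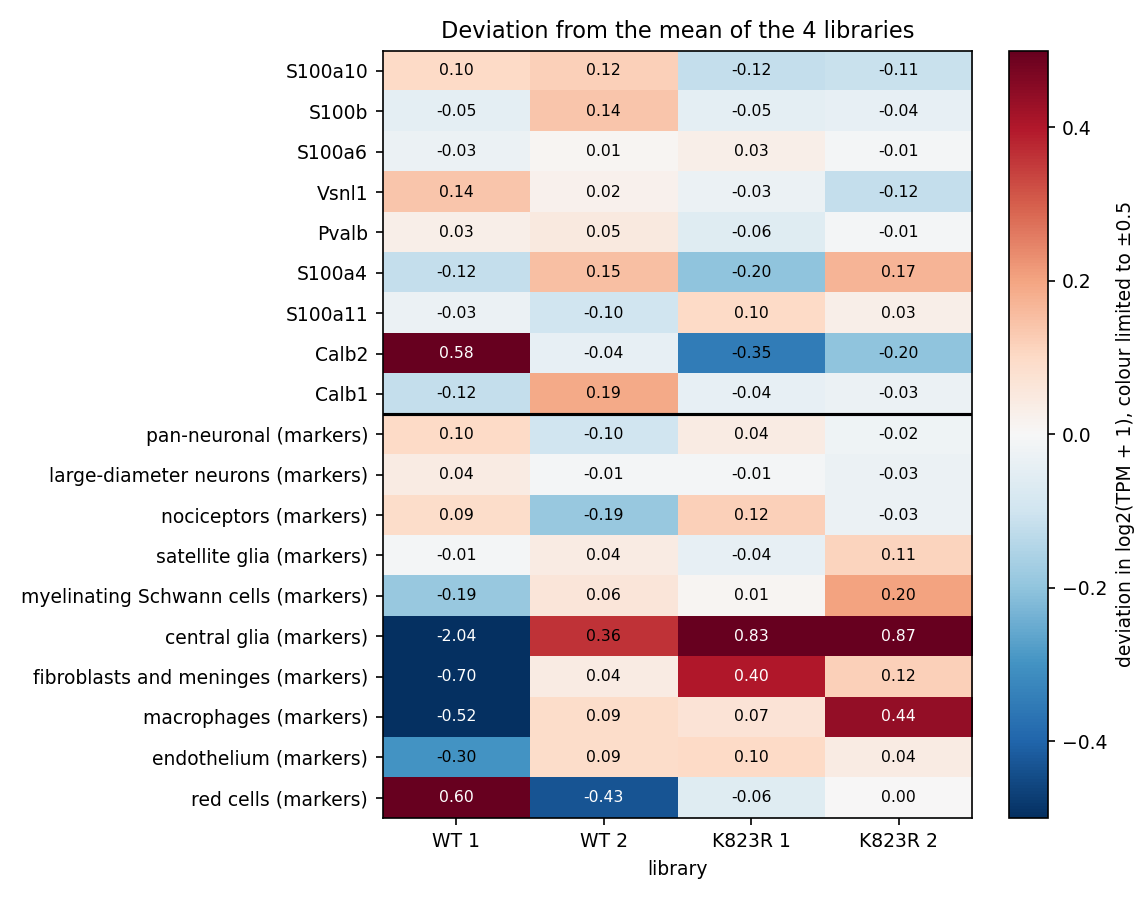
Deviation of each library from the mean of the 4, in log2(TPM + 1), for the 9 members (upper rows) and as the median over tested markers of 10 cell types (lower rows). Numbers give the deviation and colours are limited to ±0.5. WT replicate 1 deviates by 0.58 for Calb2, by -2.04 for central glia markers and by 0.60 for red cell markers, and S100a10 separates the genotypes with little spread inside them.

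Profiles over the 4 libraries were compared by the Euclidean distance between centred log2(TPM + 1) values, over 8729 genes, for the 3 most variable members. Nearest to Calb2 were Fam107a (distance 0.11), Tab3 (0.13) and Zdhhc16 (0.16), all highest in WT replicate 1. Fam107a was at 34.14 and 21.14 TPM in the WT libraries and 18.92 and 19.47 TPM in those of K823R. Within 0.2 of Calb2 came 4 genes, against 248 for S100a4 and 1093 for Calb1. Such counts depend on how much the member itself varies (SD of log2 level 0.408, 0.186 and 0.132). They do not count the genes with a large step. Nearest to S100a4 were Dctpp1 (0.046), Metrn (0.054) and Fam181b (0.066), and nearest to Calb1 were Cxcr4 (0.016), Tmem80 (0.025) and Cmc2 (0.025). With 4 libraries such likeness is a description. Between members the nearest profiles were those of Calb1 and S100b (0.084), both highest in WT replicate 2, and the farthest were those of Calb2 and S100a4 (0.83).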

How the data were processed

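Per the labels' protocols, messenger RNA isolated from ganglion RNA was fragmented, copied from random primers and read from both ends. The 4 libraries were grouped as 2 WT and 2 K823R by sample title. Tools listed without roles in the submitters' processing notes are edgeR, RSEM, HISAT2 and fastp 0.19.5, with the build GRCm38.p6. The annotation release was not given in the sources used here, nor was strandedness. The authors deposited TPM for each library. TPM keeps no read depth, so no counting interval or detection limit is given, and a gene listed at 0 may be a failed estimate. The deposited gene length was used to choose the GENCODE M21 (GRCm38) transcript of equal length.

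Genes averaging 1 TPM or more (15390) were tested with limma 3.58.1 (R 4.3.3) on log2(TPM + 1), which understates changes of low genes, with a variance trend, two-sided and Benjamini-Hochberg adjusted (threshold 0.05). The test was checked on simulated data with noise at the spread of this fit. It called 0.2% of 1000 genes changed 1.2-fold, 90.5% of 1000 changed 2-fold and 0.103% of unchanged genes. A change near 1.2-fold was thus rarely called, so a gene that did not pass may still differ. The noise used limma's spreads after their shrinkage toward the trend, and many genes were changed at once. Both can raise the share called, so 90.5% is not the chance of a call in these data. Adgra3, picked after its values were seen, had a log2 difference of -1.077 and a limma adjusted p of 0.760. With 2 libraries per group no permutation test was used. Copies were searched with BLAST 2.17.0 and coding sequences aligned with Biopython 1.88. The members, gene lists and tests were chosen with earlier results of these data known. Named genes were the 9 members, the 2 with the smallest p from each related list, and the 3 nearest profiles of the 3 most variable members. Others are said to be picked after their values were seen, except partners and markers named as list examples. The settings varied were the pseudocount, filter, scaling, variance trend, replicate block and each library.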

Additional observations from a re-analysis of the deposited data

How the results depend on the processing

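None of the 9 members passed limma at an adjusted p below 0.05 under any of the 11 alternatives, and no gene of the related lists did. Over all genes the count of 1 became 0 with no filter, with no variance trend and with the replicate block, 2 among genes averaging 10 TPM or more (Gm43110 and Gm11007), and 0 with any library left out. The median log2 difference of the members ran from -0.16 to 0.0097 with each library left out. The log2 differences of 4 members reversed with a library left out, and the cause was not tested. With each library left out in turn Calb1 ran from -0.22 to 0.085 and S100b from -0.18 to 0.0097, both reversing without WT replicate 2. S100a4 ran from -0.21 to 0.16, with 0.11 without WT replicate 2 and 0.16 without K823R replicate 1. S100a6 ran from -0.0049 (without WT replicate 1) through -0.0010 (without K823R replicate 1) to 0.039, and was -0.0058 with median of ratios rescaling. Pvalb, Calb2, Vsnl1, S100a10 and S100a11 kept their direction in all 11. Adjusted p ranged from 0.427 to 1.00. The number of members with an unadjusted p below 0.05 ran from 0 to 3, and S100a10 was among them in 6 of the 11. The labels do not say that replicate numbers pair libraries, and deviations of same-numbered libraries correlated at 0.074 over 9100 genes. With the replicate block the members' median stayed at -0.073 and 0 members were called. Depth is unknown from TPM.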
